A study of Homo sapiens with 8 samples.

Results

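ADAR1 knockdown (KD) was set against control (Ctrl) in IMR90 cells, an established line of human fetal lung fibroblasts, by RNA-seq. The comparison used 2 of the 8 libraries of the series, 1 for each group, chosen by the ADAR1 status in their labels. The knockdown agent, its duration and any separate culture of the groups are not given in the labels. Both groups otherwise share the same line and the same preparation, which was total RNA from a column kit with DNase digestion and a KAPA RNA HyperPrep library. The other 6 libraries, which are precipitates and inputs of an RNA immunoprecipitation, were not used here. The question, from the title of the series, is how loss of ADAR1 bears on the cell cycle inhibitor p16 in senescence.

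ADAR1, the product of the gene ADAR, binds double-stranded RNA and converts adenosine to inosine, and it keeps the cell's own double-stranded RNA from triggering interferon through cytosolic RNA sensors. The inhibitor p16, encoded by CDKN2A, blocks the cyclin D kinases that release the cell cycle from the retinoblastoma protein. Senescent fibroblasts stop dividing, keep high levels of such inhibitors and secrete proteases, growth factors and cytokines, while growing fibroblasts make replication histones and matrix. The counts hold the amount of RNA of each gene and say nothing on whether any adenosine was edited.

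The KD library held 50711218 counts and the Ctrl library 39172819. After scaling by the trimmed mean of M values (TMM), a gene at an equal level has 1.31 KD counts for each Ctrl count, so the folds below are smaller than the plain ratio of counts for genes that were higher in KD. A total of 13235 genes, or 22.9% of the 57736 listed, had at least 50 counts in a library and were compared. A gene is called higher or lower when it differed at least 2-fold with a prior count of 2. With 1 library per group there was no replicate check, and no test across genes was possible. Intervals are exact conditional binomial intervals at 95% on the log2 scale and cover counting error only. Their median half-width was 0.07 for the 5785 genes with at least 1000 counts in both libraries, 0.19 for the 5330 genes whose lower count was between 100 and 1000, and 0.53 for the 2021 genes whose lower count was between 10 and 100.

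The markers of fibroblasts were present in both libraries. All 12 were measured, and their summed level was 7153 CPM (the count scaled to the size of the library) in KD and 6338 CPM in Ctrl. Among them COL1A1 was called higher and DCN lower. Epithelial markers summed to 15.3 CPM in KD and 14.5 CPM in Ctrl, nearly all of it CLDN4 and EPCAM. CLDN4 had 675 counts in KD and 427 in Ctrl, and EPCAM 103 in KD and 136 in Ctrl. KRT5, KRT14, SFTPC, NKX2-1 and ESRP1 were at 0 in both. Leukocyte markers summed to 47.2 CPM in KD and 44.6 CPM in Ctrl, nearly all of it CD68, with CD3E and TYROBP at 0 in both. Endothelial markers summed to 88.8 CPM in KD and 55.1 CPM in Ctrl, most of it TEK, at 77.0 CPM in KD and 52.5 CPM in Ctrl. The growth factor receptor KDR had 538 counts in KD and 74 in Ctrl, while the defining cadherin CDH5 was at 0 in both. Smooth muscle markers summed to 142 CPM in KD and 175 CPM in Ctrl. Neural and melanocyte markers summed to 237 CPM in KD and 174 CPM in Ctrl, nearly all of it TUBB3, at 227 CPM in KD and 174 CPM in Ctrl. TYRP1 had 474 counts in KD (9.29 CPM) and 1 in Ctrl, and SOX10 and MLANA were at 0 in both. In bulk RNA, fewer cells of a type and less RNA per cell cannot be told apart.

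ADAR itself (ENSG00000160710) was 7.01-fold lower in the library labelled KD, with 1445 counts in KD and 7732 in Ctrl (log2 ratio -2.81, interval -2.89 to -2.73). The related editing enzymes did not pass 2-fold. ADARB1, which encodes ADAR2, had 1163 counts in KD and 1247 in Ctrl (log2 ratio -0.49, interval -0.61 to -0.37). ADAT1 and ADAT2, which deaminate adenosine in transfer RNA, had log2 ratios of -0.53 and -0.90, ADAT2 with -1.26 on the deposited FPKM.

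The CDK inhibitors did not move together. CDKN2A (ENSG00000147889), whose counts cover p16 and the alternative product ARF, had 381 counts in KD and 182 in Ctrl, 1.60-fold above Ctrl and short of the 2-fold limit. Its log2 ratio of 0.68 (interval 0.42 to 0.94) became 0.11 once the trends over length and GC content described below were removed. CDKN2D, which encodes p19, rose 3.50-fold, with 815 counts in KD and 178 in Ctrl (log2 ratio 1.81, interval 1.57 to 2.05). CDKN1A, which encodes p21 and is a target of p53, fell 2.16-fold, with 10457 counts in KD and 17230 in Ctrl. The remaining members lay between 0.04 for CDKN2B, the neighbour of CDKN2A that encodes p15, and 0.59 for CDKN2C, which encodes p18. CDKN1B, which encodes p27, stood at 0.52 and CDKN1C, which encodes p57, at 0.38. Of 7 inhibitors, 1 was higher and 1 lower.

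Among 19 nuclear genes linked to senescence, 2 were higher and 3 lower. SIRT1, a NAD-dependent deacetylase, had 844 counts in KD and 1569 in Ctrl and was 2.44-fold lower (log2 ratio -1.28, interval -1.41 to -1.16), or -0.82 with trends removed. The Polycomb genes went opposite ways: CBX7 rose 4.01-fold, with 163 counts in KD and 31 in Ctrl, whereas BMI1, a repressor of the CDKN2A locus, had 1203 counts in KD and 2261 in Ctrl and a log2 ratio of -1.30. RB1, the retinoblastoma gene, had 2355 counts in KD and 3970 in Ctrl, at -1.14. BMI1 and RB1 were at -0.91 and -0.67 with trends removed, below 2-fold. CCND3, a D-type cyclin, rose 2.29-fold, with 4389 counts in KD and 1463 in Ctrl. LMNB1, the lamin B1 gene that senescent fibroblasts lose, had 8771 counts in KD and 4620 in Ctrl, a log2 ratio of 0.54. HMGB1 and LMNA stood at 0.13 and 0.03.

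**Figure D1:**
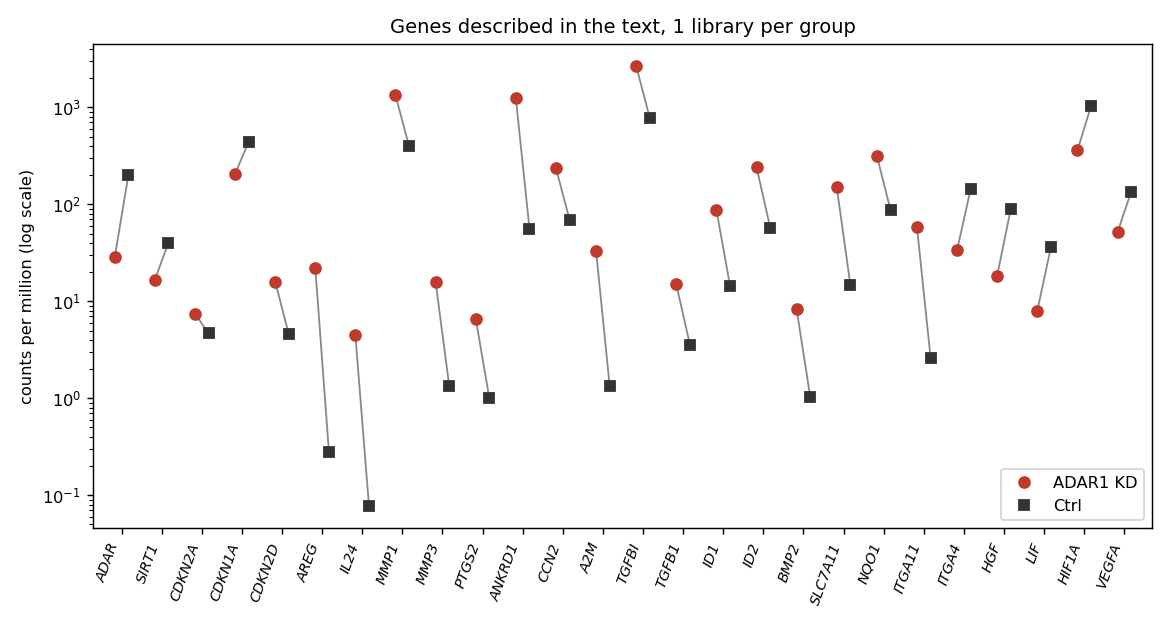
Level of 26 genes described in the text in ADAR1 KD (red circles, left) and Ctrl (black squares, right), in CPM on a log axis, 1 library per group and so without error bars. ADAR lies at 28.3 in KD and 199 in Ctrl, while AREG, IL24 and A2M have the steepest lines from KD down to Ctrl.

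Across all genes the ratios were centred close to 0, with a median log2 ratio of -0.01 and quartiles of -0.45 and 0.42. In all, 62.4% of the genes differed less than 1.5-fold. A total of 1100 genes (8.31%) were higher in KD and 1020 (7.71%) were lower. Counts of list members in all paragraphs are to be read beside these shares. The interval lay wholly beyond 2-fold for 706 of the higher and 668 of the lower genes. Large increases outnumbered large decreases: 301 genes were at least 4-fold higher and 89 at least 4-fold lower, and 97 were at least 8-fold higher and 14 at least 8-fold lower. The count minimum is met at a lower level in the deeper KD library, and 21 genes were at 0 in Ctrl but 3 in KD. Small nucleolar RNAs, described below, are among the genes at least 4-fold higher. The part of either in this difference was not tested. The deposited FPKM values, which are scaled to transcript length, gave 7.36% higher and 7.16% lower. Protein-coding genes on their own gave 6.54% higher and 7.62% lower. At the edge of the count minimum, the 34 genes with exactly 50 counts had a median log2 ratio of -0.10, and the 29 genes just below it, with 49 counts, had one of 0.30.

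**Figure D2:**
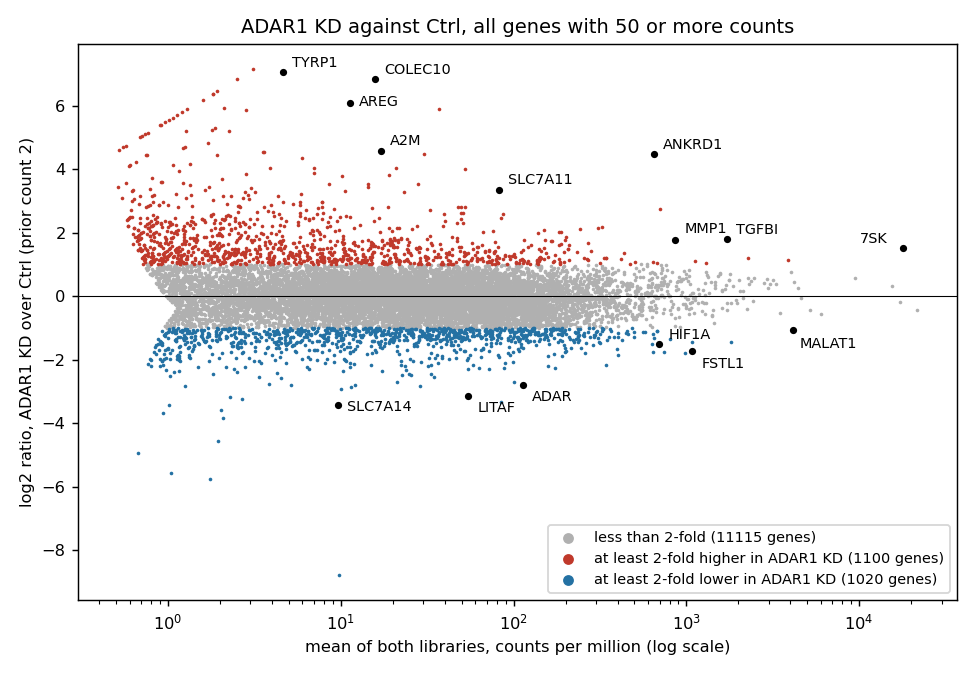
Log2 ratio of ADAR1 KD over Ctrl (vertical, prior count of 2) against the mean of both libraries in CPM (log axis), 1 point per gene. The 1100 higher genes (red) reach further from 0 than most of the 1020 lower genes (blue), and several genes above 100 CPM, such as ANKRD1, MMP1, TGFBI and 7SK, are among them.

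The ratio moved with the length and the base composition of the RNA. In the lowest decile of length, with a median effective length of 457 bases, the median log2 ratio was 0.52 and 24.3% were called higher and 2.05% lower. In the highest decile of length, with a median of 5461 bases, the median was -0.34 and 3.80% were called higher and 16.7% lower. In the decile with the lowest GC content (median 38.9%) the median was -0.56, with 21.96% lower, and in the decile with the highest (63.2%) it was 0.29, with 11.6% higher. With smooth trends over both removed, 5.87% of the 12854 genes that could be fitted were higher and 5.32% lower. A gene's value with these trends removed is given below as the trend-removed value wherever it ends a call. Genes with an FPKM below 0.05 in a library could not be fitted and carry no such value. Among them are EGR2, WNT2, GPC4, KRT81, RGS16 and the small RNAs whose FPKM was listed at 0. The part of fragment size, RNA integrity or library preparation in these trends was not tested.

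**Figure D3:**
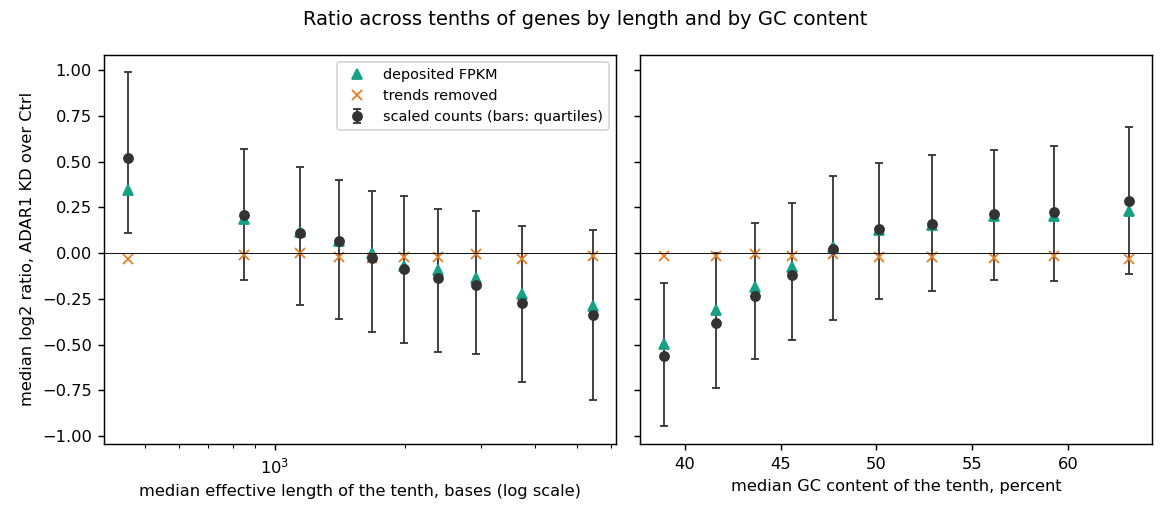
Median log2 ratio of ADAR1 KD over Ctrl in deciles of genes ordered by effective length (left, log axis) and by GC content (right), from scaled counts (black, bars to the quartiles), deposited FPKM (green) and with the trends removed (orange). Black and green points fall with length and climb with GC content, and orange points stay near 0.

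The genes with the highest ratios were mostly silent or nearly silent in Ctrl. TYRP1, a melanosome enzyme, had 474 counts in KD and 1 in Ctrl, and COLEC10, a soluble lectin of the collectin family, had 1598 counts in KD and 9 in Ctrl, 136-fold higher (log2 interval 6.15 to 8.21). The interval of the log2 ratio for TYRP1 was 6.01 to 13.81. AREG, the epidermal growth factor receptor ligand amphiregulin, rose 78.6-fold, with 1133 counts in KD and 11 in Ctrl (log2 interval 5.45 to 7.30). CCN5, a secreted matricellular protein, had 284 counts in KD and 2 in Ctrl, and MMP10, a stromelysin, had 188 in KD and 2 in Ctrl. Their log2 intervals were 4.89 to 9.81 and 4.29 to 9.22.

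Of all genes compared, 21 had 0 counts in Ctrl, and their folds are lower bounds against 3 counts in that library. ODAPH, a phosphoprotein of tooth enamel, had 197 counts in KD and 0 in Ctrl and was at least 50.1-fold higher. TREM1, a receptor of myeloid cells, had 131 in KD and 0 in Ctrl, at least 33.3-fold higher; of the leukocyte markers CD68 had 2393 in KD and 1728 in Ctrl, and CD3E and TYROBP were at 0 in both. EGR2, an immediate early transcription factor, had 115 in KD and 0 in Ctrl, at least 29.3-fold higher. TRIM54, a ubiquitin ligase of muscle, was at least 27.7-fold higher and MGP, an inhibitor of calcification, at least 26.5-fold higher, with 109 and 104 counts in KD and 0 in Ctrl. The long noncoding RNA UCA1 and the receptor MRGPRX3 had 93 and 92 counts in KD and 0 in Ctrl. AMIGO3 (318 in KD and 0 in Ctrl) and the readthrough genes TRIM6-TRIM34 (186 in KD and 0 in Ctrl) and ZFP91-CNTF (123 in KD and 0 in Ctrl) share nearly all their exon length with other genes and are uncertain.

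At the other end, many but not all of the lowest ratios belonged to genes that Ctrl cells expressed at a low level. CRHBP, which binds corticotropin-releasing hormone, fell 16.7-fold, with 12 counts in KD and 153 in Ctrl. SRSF12, a splicing factor of the SR family, had 5 counts in KD and 69 in Ctrl, 18.1-fold lower. APCDD1, an inhibitor of WNT signalling, fell 13.8-fold, with 14 counts in KD and 147 in Ctrl. SLC7A14, of the cationic amino acid transporter family, fell 11.1-fold, with 81 in KD and 689 in Ctrl. LITAF, a membrane protein of the endosome, was abundant in Ctrl and fell 8.93-fold, with 562 counts in KD and 3833 in Ctrl (log2 interval -3.29 to -3.03). BIRC3, an inhibitor of apoptosis and target of NF-kB, fell 7.38-fold, with 140 in KD and 789 in Ctrl, and RAB11FIP2, a recycling endosome adaptor, fell 7.20-fold, with 357 in KD and 1962 in Ctrl. CCN4, a matricellular protein induced by WNT, fell to 21 counts in KD, against 161 in Ctrl, TRANK1 to 117 in KD, against 692 in Ctrl, and GUCA1A to 14 in KD, against 87 in Ctrl. BLOC1S5-TXNDC5 (0 in KD and 760 in Ctrl) and ZRSR2P1 (0 in KD and 81 in Ctrl) lie within other genes, GOLGA6L9 (1 in KD and 135 in Ctrl) belongs to a multicopy family and RPS3AP38 (7 in KD and 74 in Ctrl) is a pseudogene, so their values are uncertain.

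Measured by amount of RNA, the genes called higher summed to 85097 CPM in KD and 31443 CPM in Ctrl, and the genes called lower to 39350 CPM in KD and 97722 CPM in Ctrl. The largest gain was that of 7SK, the small nuclear RNA that holds the elongation kinase P-TEFb inactive, with 1361911 counts in KD and 365408 in Ctrl (2.85-fold higher). It lost the call with trends removed (0.47), and reads of its many pseudogene copies such as RN7SKP255 (62648 counts in KD and 7186 in Ctrl) cannot be told apart from it with certainty. TGFBI, a secreted matrix protein induced by TGF-beta, rose 3.45-fold, with 136076 counts in KD and 30146 in Ctrl. TPM1, an actin-binding tropomyosin, rose 2.31-fold, with 161698 in KD and 53360 in Ctrl (trend-removed 0.97). ANKRD1, a muscle ankyrin-repeat protein and target of YAP, rose 22.2-fold, with 63323 counts in KD and 2178 in Ctrl. THBS1, TMSB10, EEF1A1, VIM, ACTG1, CALM2 and YBX1 also gained much RNA, but at log2 ratios between 0.32 and 0.75, below the limit. RNU2-2P gained as well (269496 counts in KD and 94580 in Ctrl), but it lies inside another gene and its log2 ratio was -0.01 with trends removed and -0.14 on the deposited FPKM.

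The largest losses of RNA included several genes of the cell surface and matrix. DST, a linker of the cytoskeleton, had 49059 counts in KD and 103026 in Ctrl (log2 ratio -1.46, trend-removed -0.88). FSTL1, a secreted follistatin-like glycoprotein, fell 3.34-fold, with 25450 counts in KD and 64956 in Ctrl. SFRP1, a secreted antagonist of WNT, fell 3.47-fold, with 22460 in KD and 59497 in Ctrl. IL6ST, the signalling receptor gp130 of the interleukin-6 family, fell 3.41-fold, with 17113 in KD and 44602 in Ctrl. PLOD2, a lysyl hydroxylase of collagen, fell 3.37-fold, with 14883 in KD and 38241 in Ctrl. ADAM9, a membrane metalloprotease, had 29617 in KD and 61144 in Ctrl, 2.70-fold lower (trend-removed -0.81). MALAT1, a nuclear long noncoding RNA, had 135035 counts in KD and 217397 in Ctrl, a log2 ratio of -1.08 (trend-removed -0.40). AKAP2 fell as well but overlaps a longer readthrough gene. ITGB1, FN1, AHNAK, RND3, CCND1 and CLIC4 lost RNA at log2 ratios between -0.84 and -0.42.

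Secreted factors did not share a direction by family. Of 10 metalloproteases, 4 were higher (40%) and 1 lower (10%), against 8.31% and 7.71% of all genes, with a median log2 ratio of 0.73. MMP1, an interstitial collagenase, rose 3.38-fold, with 68102 counts in KD and 15367 in Ctrl. MMP2, a gelatinase, rose 3.42-fold, with 15606 in KD and 3487 in Ctrl. MMP3, a stromelysin, rose 11.9-fold, with 808 in KD and 52 in Ctrl, and MMP19 fell 2.62-fold, with 134 in KD and 268 in Ctrl. MMP14, the membrane-bound activator of MMP2, had 23826 counts in KD and 10988 in Ctrl, at 0.73. Among 6 protease inhibitors A2M, the broad-range inhibitor alpha-2-macroglobulin, rose 24.7-fold, with 1683 counts in KD and 52 in Ctrl. TIMP1 rose 2.10-fold, with 13517 in KD and 4909 in Ctrl (trend-removed 0.48), and TIMP3 stood at -0.61.

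Among 18 members of the ADAM and ADAMTS families 4 were higher and 2 lower. ADAM19 rose 3.30-fold, with 12872 counts in KD and 2979 in Ctrl, and the aggrecanase ADAMTS5 rose 2.94-fold, with 536 in KD and 139 in Ctrl. ADAM12 and ADAMTS9 rose as well (860 and 231 counts in KD, 241 and 74 in Ctrl), ADAMTS9 with 0.91 on the deposited FPKM. Of 12 plasminogen activators and serpins, 2 were higher and 2 lower. SERPINE2, an inhibitor of thrombin and plasminogen activators, rose 3.04-fold, with 16121 in KD and 4050 in Ctrl, and SERPINB7 rose 2.61-fold. SERPINF1, which encodes PEDF, fell 2.84-fold and SERPING1, the complement C1 inhibitor, 2.46-fold.

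Cytokines were divided. Of 18 interleukins and receptors, 4 were higher and 6 lower, with a median of -0.07, and 5 were higher and 3 lower with trends removed. IL24, of the interleukin-10 family, had 227 counts in KD and 3 in Ctrl (log2 interval 4.29 to 8.14). IL11, of the interleukin-6 family, rose 3.16-fold, with 1441 in KD and 348 in Ctrl. IL13RA2, a decoy receptor, had 77 in KD and 24 in Ctrl (0.73 on FPKM). In the same family LIF fell 4.55-fold, with 408 in KD and 1417 in Ctrl, and its receptor LIFR 2.37-fold, with 1855 in KD and 3353 in Ctrl (trend-removed -0.76), beside the shared subunit IL6ST. IL15, IL18 and IL32 were lower with 80, 31 and 38 counts in KD and 140, 54 and 65 in Ctrl, IL15 and IL18 with trend-removed values of -0.74 and -0.98. IL6, the best known cytokine of senescent fibroblasts, had only 61 counts in KD and 29 in Ctrl, a log2 ratio of 0.68 (interval 0.02 to 1.37). Of 3 chemokines above the count minimum, CXCL8 rose 5.58-fold, with 139 in KD and 19 in Ctrl, CXCL12 stood at 0.34 and CCL2 at -0.35.

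Growth factor families were divided as well. Of 7 ligands and receptors of the epidermal growth factor family, AREG and EREG were higher. EREG, epiregulin, had 359 counts in KD and 113 in Ctrl, 2.43-fold higher. The receptors EGFR and ERBB2 stood at -0.70 and -0.56. Of 16 feedback genes of this receptor and the MAP kinases, 4 were higher: RGS16 (122 in KD and 2 in Ctrl; log2 interval 3.66 to 8.60), the ETS factor ETV4 (384 in KD and 114 in Ctrl), the phosphatase DUSP10 (10552 in KD and 3622 in Ctrl) and SPRY4 (1698 in KD and 583 in Ctrl). In contrast, of 20 genes of the FGF, PDGF, VEGF and HGF systems 1 was higher and 5 lower, with a median of -0.46. HGF, the hepatocyte growth factor that fibroblasts supply to epithelium, fell 4.91-fold, with 940 counts in KD and 3522 in Ctrl. KITLG, the stem cell factor, fell 3.14-fold, with 5332 in KD and 12770 in Ctrl. VEGFA had 2634 counts in KD and 5254 in Ctrl, FGF2 had 4234 in KD and 7615 in Ctrl (log2 ratio -1.24, trend-removed -0.86) and FGF1 had 1179 in KD and 1905 in Ctrl (-0.70 on FPKM). KDR was the 1 member higher.

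In the insulin-like growth factor axis 3 of 14 genes were higher and 1 lower. IGFBP7, a binding protein secreted by senescent cells, rose 4.54-fold, with 27109 counts in KD and 4554 in Ctrl. IRS2, an adaptor of the receptor, rose 2.91-fold, with 1248 in KD and 327 in Ctrl, and IGF2 2.12-fold, with 870 in KD and 314 in Ctrl. IGFBP2 fell 3.17-fold, with 91 in KD and 220 in Ctrl. PTGS2, the inducible prostaglandin synthase, rose 6.62-fold, with 338 counts in KD and 39 in Ctrl. The terminal synthase PTGES and the receptor PTGER2 fell, to 34 and 587 counts in KD, against 71 and 1110 in Ctrl.

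AP-1 is the dimer of FOS and JUN proteins. Of 22 AP-1 and immediate early factors 7 were higher and 0 lower, against 8.31% and 7.71% of all genes, with a median of 0.51. Besides EGR2 they were NR4A3 (73 counts in KD and 13 in Ctrl), KLF4 (192 in KD and 51 in Ctrl), FOS (83 in KD and 23 in Ctrl), JUND (377 in KD and 120 in Ctrl), KLF2 (112 in KD and 37 in Ctrl) and ATF3 (233 in KD and 82 in Ctrl). NR4A3, KLF4 and FOS kept the call with trends removed, EGR2 could not be fitted there, and JUND, KLF2 and ATF3 stood at 0.54, 0.83 and 0.97. JUN had 6011 counts in KD and 6376 in Ctrl, at -0.47, and FOSL1 stood at 0.46.

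The AP-1 site TGACTCA was sought on both strands in promoters of 300 bases around the start (RefSeq, GRCh38.p14). It was present in 7 of 57 promoters of genes at least 8-fold higher (12.3%), in 40 of 646 of genes at least 2-fold higher (6.19%) and in 18 of 759 of genes at least 2-fold lower (2.37%). Over all 9988 compared genes with a promoter the share was 2.99%, and over all 27305 promoters 4.92%. These promoters differed in base composition. The median GC content was 56% in genes at least 8-fold higher, 63% in higher genes and 66% in lower genes. It was 65.3% in all compared genes and 58.3% in all promoters. TATAAA was also more frequent in genes at least 8-fold higher (12 of 57, 21.05%) than in all compared genes (5.56%). The part of base composition in these shares was not tested. None of the 4 metalloprotease promoters searched held it, and MMP1 and MMP3 were not among them. The same letters can be part of the antioxidant response element. The 150 bases before the start are shown, because they hold the site in the 4 protein-coding genes with the highest ratios among those with a match there, with the site in capitals (TGAGTCA where it lies on the other strand).
ODAPH: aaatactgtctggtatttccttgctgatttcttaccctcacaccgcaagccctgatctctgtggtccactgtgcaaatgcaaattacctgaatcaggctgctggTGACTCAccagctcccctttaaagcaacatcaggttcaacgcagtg
TRIM54: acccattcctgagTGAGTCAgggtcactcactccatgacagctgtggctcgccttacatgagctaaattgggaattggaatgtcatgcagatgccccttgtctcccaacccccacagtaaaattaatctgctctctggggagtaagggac
SLITRK6: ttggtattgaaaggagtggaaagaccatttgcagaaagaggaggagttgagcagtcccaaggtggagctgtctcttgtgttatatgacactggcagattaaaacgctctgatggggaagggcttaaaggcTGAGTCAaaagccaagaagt
KCNJ15: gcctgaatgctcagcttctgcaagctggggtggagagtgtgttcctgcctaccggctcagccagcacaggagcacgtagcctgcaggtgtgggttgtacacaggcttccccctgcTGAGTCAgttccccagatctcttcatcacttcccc
The windows lie at chr4:75555916-75556065, plus strand for ODAPH, at chr2:27282279-27282428, plus strand for TRIM54, at chr13:85799420-85799569, minus strand for SLITRK6 and at chr21:38272358-38272507, plus strand for KCNJ15. ODAPH had 197 counts in KD and 0 in Ctrl, and TRIM54 109 in KD and 0 in Ctrl. SLITRK6, a transmembrane protein of neurons and the inner ear, had 285 in KD and 19 in Ctrl. KCNJ15, an inward rectifier potassium channel, had 126 in KD and 9 in Ctrl, 10.7-fold higher. A match describes the letters only and is no measure of binding.

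The BMP pathway had many members that were higher. Of 20 members 10 were higher (50%) and 0 lower, against 8.31% and 7.71% of all genes. The median log2 ratio was at the limit itself, 1.0004, and 11 members were higher with trends removed. Among ligands, BMP2 rose 8.02-fold, with 420 counts in KD and 40 in Ctrl (log2 interval 2.53 to 3.51). GDF15, a stress-induced ligand and p53 target, rose 3.14-fold, with 1529 in KD and 372 in Ctrl. BMP4, GDF5 and GDF6 stood between -0.55 and 0.68 with a prior count of 2. Secreted antagonists rose with them: NOG, which encodes noggin, 2.88-fold, with 1309 counts in KD and 347 in Ctrl, and GREM1 2.04-fold, with 88677 in KD and 33200 in Ctrl. The receptors did not pass the limit, with BMPR1A at -0.84, BMPR1B at -0.39, BMPR2 at -0.06 and ACVR1 at 0.51.

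The direct targets of BMP signalling, the ID proteins that block helix-loop-helix transcription factors, were all higher. ID1 had 4487 counts in KD and 560 in Ctrl, a 6.12-fold difference (log2 interval 2.49 to 2.74). ID2 had 12359 in KD and 2243 in Ctrl, 4.21-fold higher. ID3 had 1207 in KD and 306 in Ctrl, 3.01-fold higher, and ID4 had 695 in KD and 116 in Ctrl, 4.57-fold higher. SMAD6, an inhibitory SMAD that BMP induces, rose 2.50-fold, with 403 in KD and 123 in Ctrl. All 5 kept the call with trends removed.

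The TGF-beta pathway had 4 members higher (18.2%) and 1 lower (4.55%) of 22, against 8.31% and 7.71% of all genes, with a median of 0.60. TGFB1, the ligand, rose 4.18-fold, with 762 counts in KD and 139 in Ctrl. TGFB2 had 3737 in KD and 1460 in Ctrl, just below the limit at 0.97 (trend-removed 1.53). The co-receptor TGFBR3, betaglycan, fell 5.53-fold, with 517 in KD and 2184 in Ctrl, whereas TGFBR1 and TGFBR2 stood at 0.18 and 0.72. The feedback inhibitors SMAD7 and PMEPA1 rose 3.42-fold and 3.20-fold, with 1700 and 915 counts in KD and 380 and 218 in Ctrl. TGFBI was the remaining member called. INHBA, an activin subunit, and its antagonist FST stood at 0.63 and 0.73.

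Of 19 genes of the YAP and TEAD pathway, ANKRD1 and CCN2 were the 2 called (10.5%) and both were higher. This share was near the 8.31% of all genes. CCN2, connective tissue growth factor, rose 3.42-fold, with 12055 counts in KD and 2692 in Ctrl. CCN1, another target of YAP, stood at 0.35, and AXL and AMOTL2 at -0.34 and -0.13. In the WNT pathway 3 of 20 were higher and 4 lower. LEF1 and TCF7, its transcription factors, rose by log2 ratios of 2.49 and 2.15, with 389 and 192 counts in KD and 53 and 33 in Ctrl. WNT2, a ligand of lung mesenchyme, had 113 in KD and 4 in Ctrl, 21.6-fold higher. The antagonist SFRP1 fell, as did the receptor ROR1 (126 in KD and 244 in Ctrl), the ligand WNT16 (1624 in KD and 2631 in Ctrl; trend-removed -0.97) and the co-receptor LRP6 (4372 in KD and 6712 in Ctrl; trend-removed -0.73). DKK1 and DKK3, secreted antagonists, stood at 0.08 and 0.53.

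**Figure D4:**
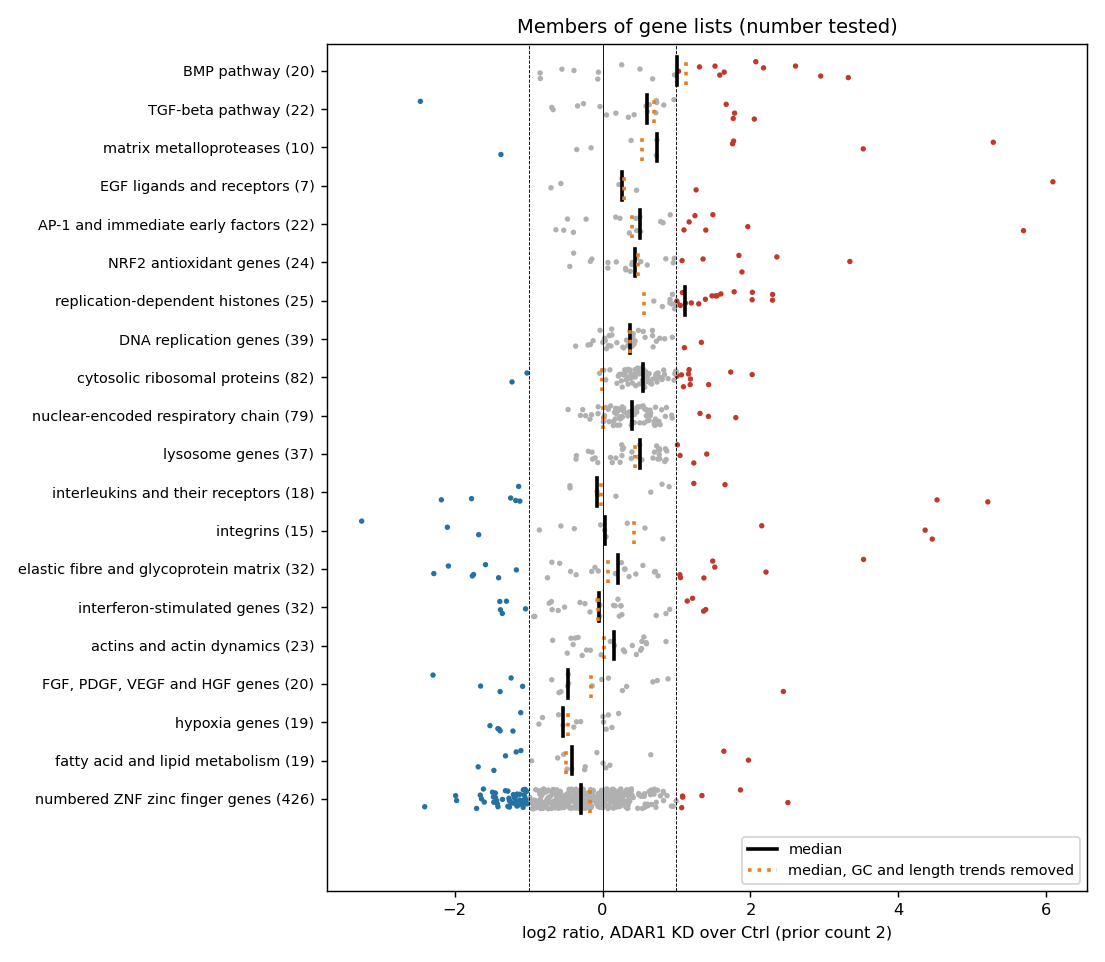
Log2 ratio of ADAR1 KD over Ctrl for the members of 20 gene lists, 1 point per gene (red, at least 2-fold higher; blue, at least 2-fold lower), with the median (black bar) and the median after removal of the GC and length trends (orange). Of these lists the BMP pathway and the replication histones lie furthest right, with medians of 1.0004 and 1.12, and the hypoxia list furthest left, at -0.53.

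Genes of the extracellular matrix changed in both directions. Of 24 collagens 4 were higher and 1 lower, with a median of 0.04, and 7 were higher on the deposited FPKM. COL1A1 rose 3.10-fold, with 14518 counts in KD and 3571 in Ctrl, but COL1A2, its partner chain, had 45816 in KD and 41621 in Ctrl, at -0.25. COL5A1 rose 2.63-fold, with 5727 in KD and 1663 in Ctrl, while COL5A2 stood at -0.48. COL10A1 and COL4A6 were higher at low counts (58 and 121 in KD, 10 and 36 in Ctrl) and COL14A1 was lower (61 in KD and 133 in Ctrl; -0.70 on FPKM). Of 19 collagen-modifying enzymes, P4HA3, a prolyl hydroxylase, rose 3.96-fold, with 617 counts in KD and 119 in Ctrl. LOXL2 and LOXL4, which crosslink collagen, fell 3.72-fold and 2.84-fold, with 3441 and 274 in KD and 9776 and 595 in Ctrl, and PLOD2 fell as given above.

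Of 32 elastic fibre and matrix glycoprotein genes 7 were higher and 7 lower. MFAP4, MFAP2 and MFAP5, proteins of the microfibril, rose 11.8-fold, 4.72-fold and 2.87-fold, with 1354, 396 and 177 counts in KD and 88, 64 and 47 in Ctrl. POSTN, periostin, rose 2.87-fold, with 2049 in KD and 545 in Ctrl. SPON2, LAMB1 and FBLN5 were also higher, FBLN5 with a trend-removed value of 0.96. FBN2, a fibrillin of the same microfibrils, fell 4.87-fold, with 1530 in KD and 5683 in Ctrl. The laminin chains LAMA2 and LAMA4 fell 4.25-fold and 2.65-fold, with 564 and 3491 in KD and 1831 and 7059 in Ctrl. FBLN2, a fibulin, fell 3.43-fold, with 126 in KD and 330 in Ctrl, and tenascin C, EFEMP1 and MATN2 were lower too. Among 18 proteoglycan and hyaluronan genes, GPC4, a glypican, had 76 counts in KD and 1 in Ctrl (log2 interval 3.34 to 11.18). HAPLN1 had 125 in KD and 37 in Ctrl. DCN, decorin, fell 2.44-fold, with 12000 in KD and 22342 in Ctrl, and GPC6 2.56-fold.

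Integrins changed in opposite directions by subunit. ITGA11, a collagen receptor of fibroblasts, rose 22.3-fold, with 2955 counts in KD and 101 in Ctrl (log2 interval 4.20 to 4.78). ITGA8, a receptor for nephronectin and fibronectin, rose 22.2-fold, with 583 in KD and 20 in Ctrl. ITGB5, which pairs with the alpha-V chain, rose 4.45-fold, with 25552 in KD and 4387 in Ctrl. The laminin receptor ITGA7 fell 10.4-fold, with 24 in KD and 190 in Ctrl, the fibronectin and VCAM1 receptor ITGA4 fell 4.29-fold, with 1725 in KD and 5644 in Ctrl, and ITGB8, which activates latent TGF-beta, fell 3.21-fold, with 253 in KD and 620 in Ctrl. All 6 kept the call with trends removed. ITGB1, the common beta chain, had 248472 counts in KD and 280176 in Ctrl, at -0.56.

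Cytoskeletal lists differed from each other. None of 23 genes of actins and actin dynamics was called, with a median of 0.16. Among 18 contractile genes, TPM1 and ACTC1 were higher and LMOD1 lower, but with trends removed 1 was higher and 4 lower. ACTC1, cardiac actin, rose, with 199 counts in KD and 19 in Ctrl (log2 interval 2.32 to 3.76). ACTA2, the smooth muscle actin of myofibroblasts, had 14175 in KD and 18121 in Ctrl, at -0.74, and ACTG2 and CNN1 stood at -0.65 and -0.67; their trend-removed values were -1.01, -1.02 and -1.07. Of 20 keratins and junction proteins 3 were higher and 6 lower (1 and 6 with trends removed). KRT19 fell 4.59-fold, with 2891 in KD and 10130 in Ctrl, CLDN1, a tight junction claudin, fell 4.11-fold, with 526 in KD and 1651 in Ctrl, and GJA1, connexin 43, had 8247 in KD and 15353 in Ctrl, at -1.29 (trend-removed -0.86). KRT81 had 125 in KD and 2 in Ctrl (log2 interval 3.69 to 8.64), and KRT7 and KRT18 rose 2.87-fold and 2.16-fold, KRT18 with a trend-removed value of 0.83.

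Replication-dependent histones stood out among the genes of the cell cycle. They are short genes without introns whose mRNA ends in a stem-loop in place of a poly(A) tail and is made in S phase. All 25 that passed the count minimum lay above 0, 17 of them called higher, with a median log2 ratio of 1.12 and a summed level of 3020 CPM in KD and 1304 CPM in Ctrl. The linker histone H1-1 rose 4.93-fold, with 4325 counts in KD and 670 in Ctrl, and H1-3 2.93-fold, with 9155 in KD and 2389 in Ctrl. H2BC26 had 170 in KD and 25 in Ctrl, 5.19-fold higher, and H2BC11 5454 in KD and 1021 in Ctrl, 4.08-fold higher. H2BC5 rose 4.07-fold, with 14909 in KD and 2800 in Ctrl. With trends removed 8 remained at 2-fold and the median was 0.57, and on the deposited FPKM 12 were higher. Near-identical copies within the cluster can trade reads, so single members are less certain than the sum. Of 10 replacement histones, H1-10 and H2AX were higher (541 and 1533 counts in KD, 104 and 540 in Ctrl; H2AX trend-removed 0.69).

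Histone promoters carry a CCAAT box and a TATA box. Of 23 histone promoters in the RefSeq table, 21 held CCAAT (91.3%), against 37.2% of promoters of all compared genes, and 16 held TATAAA (69.6%), against 5.56% (both strands). Over all 27305 promoters these shares were 35.7% and 11.95%. The histone promoters had a median GC content of 44.3%, against 65.3% for all compared genes, and its part in these shares was not tested. TATAAA was present in 84 of 646 promoters of higher genes and in 48 of 759 of lower genes. The 150 bases before the start are shown for the 3 histone genes with the highest ratios among those holding both boxes there, with every match in capitals (ATTGG is CCAAT on the other strand).
H1-1: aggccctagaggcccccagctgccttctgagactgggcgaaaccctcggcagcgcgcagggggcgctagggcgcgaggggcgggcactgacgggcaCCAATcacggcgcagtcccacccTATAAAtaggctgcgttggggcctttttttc
H2BC11: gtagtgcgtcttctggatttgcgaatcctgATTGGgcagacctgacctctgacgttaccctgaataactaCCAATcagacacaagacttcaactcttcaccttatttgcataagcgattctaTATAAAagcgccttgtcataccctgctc
H2BC5: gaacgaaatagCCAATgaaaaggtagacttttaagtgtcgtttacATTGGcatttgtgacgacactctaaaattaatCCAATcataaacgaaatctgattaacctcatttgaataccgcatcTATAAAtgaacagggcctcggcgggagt
These windows lie at chr6:26017788-26017937, minus strand for H1-1, at chr6:27132796-27132945, minus strand for H2BC11 and at chr6:26157971-26158120, plus strand for H2BC5. In all 3 the TATAAA begins 28 to 31 bases before the annotated start.

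Other genes of the cell cycle changed far less. Of 39 DNA replication genes 2 were higher and 0 lower, with a median of 0.37: GINS3, a subunit of the replicative helicase, with 655 counts in KD and 197 in Ctrl, and the transcription factor E2F1, with 598 in KD and 211 in Ctrl (trend-removed 0.96). RRM2, the regulated subunit of ribonucleotide reductase, had 13226 in KD and 5248 in Ctrl, at 0.94, and MCM2 to MCM7 lay between 0.19 and 0.73. Of 40 mitosis genes 1 was higher and 4 lower. MYBL2, an activator of mitotic genes, rose 2.31-fold, with 735 in KD and 243 in Ctrl. The lower genes ASPM, CENPE, CENPF and DLGAP5 stood between -0.54 and -0.25 with trends removed. Of 28 DNA repair genes 1 was higher and 3 were lower, none of the 3 with trends removed.

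Of 28 p53 targets 2 were higher (7.14%) and 4 lower (14.3%), where 8.31% of all genes were higher and 7.71% lower. BBC3, the cell death protein PUMA, rose 2.96-fold, with 512 counts in KD and 132 in Ctrl, and GDF15 was named above. TP53INP1 had 857 in KD and 1848 in Ctrl, and CCNG1, cyclin G1, had 9000 in KD and 17162 in Ctrl, at trend-removed values of -0.82 and -0.94. RRM2B, a subunit of ribonucleotide reductase, fell 2.75-fold, with 4885 in KD and 10267 in Ctrl. Of 15 members of the BCL2 family, 3 were higher and 0 lower. BMF, a cell death activator, rose 9.61-fold, with 541 in KD and 43 in Ctrl. BCL2L12 was higher with 277 in KD and 86 in Ctrl (trend-removed 0.80), while MCL1 and PMAIP1 stood at 0.11 and 0.02.

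Antioxidant genes regulated by NRF2 had 6 members higher (25%) and 0 lower of 24, against 8.31% and 7.71% of all genes. Their median was 0.43. SLC7A11, the cystine importer, rose 10.2-fold, with 7626 counts in KD and 572 in Ctrl, and its partner chain SLC3A2 rose 2.52-fold, with 7372 in KD and 2234 in Ctrl (trend-removed 0.80). AKR1C1, an aldo-keto reductase, rose 5.16-fold, with 1325 in KD and 196 in Ctrl. NQO1, a quinone reductase, rose 3.59-fold, with 16095 in KD and 3421 in Ctrl, and OSGIN1 3.76-fold, with 369 in KD and 75 in Ctrl. TALDO1 and PGD, of the pentose phosphate pathway, rose 2.56-fold and 2.11-fold, with 11297 and 7167 in KD and 3362 and 2596 in Ctrl (PGD trend-removed 0.91). Other antioxidant genes were not called: HMOX1, heme oxygenase, had 454 counts in KD and 455 in Ctrl, at -0.39, and GCLM stood at 0.07. NFE2L2, which encodes NRF2, stood at -0.44, and the activity of NRF2 was not measured. TXNRD1, thioredoxin reductase, was close to the limit at 0.97.

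Genes of other stress pathways were mostly below the limit. None of 20 endoplasmic reticulum chaperones and none of 20 aminoacyl-tRNA synthetases was called. Of 25 targets of ATF4 and amino acid stress, 3 were higher and 2 lower, and 1 was higher and 3 lower with trends removed. By counts, SLC7A11, SLC3A2 and NUPR1 (1404 counts in KD and 391 in Ctrl; trend-removed 0.96) were higher, and VLDLR (318 in KD and 729 in Ctrl) and DDIT4 (683 in KD and 1355 in Ctrl) lower. Of 19 heat shock genes HSPB7, a small chaperone of muscle, was the 1 called, with 105 in KD and 3 in Ctrl (log2 interval 3.15 to 7.04). Among 5 metallothionein and zinc genes MT1X rose 3.81-fold, with 559 in KD and 112 in Ctrl, and SLC30A1 was lower (trend-removed -0.30).

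The hypoxia list pointed down. Of 19 genes 0 were higher and 6 lower (31.6%), against 8.31% and 7.71% of all genes, with a median of -0.53. With trends removed 7 were lower, where 5.32% of all genes were lower. HIF1A, the oxygen-regulated transcription factor, fell 2.87-fold, with 18365 counts in KD and 40273 in Ctrl, and EPAS1, which encodes HIF-2 alpha, fell 2.31-fold, with 4505 in KD and 7962 in Ctrl. Of their targets, VEGFA fell 2.61-fold, PDK1, which keeps pyruvate from mitochondria, fell 2.67-fold, with 3640 in KD and 7414 in Ctrl, and ANKRD37 fell 2.66-fold, with 182 in KD and 369 in Ctrl. EGLN3, an oxygen sensor, had 42 in KD and 71 in Ctrl (-0.77 on FPKM). MIR210HG, the host of a hypoxia-induced microRNA, fell 5.92-fold, with 27 in KD and 122 in Ctrl. Other targets did not follow, with BNIP3 at 0.01, ADM at 0.08 and NDRG1 at 0.01. Of 23 glycolysis genes the lactate exporter SLC16A3 was the 1 called, 2.56-fold higher. TPI1 and ALDOC, 2 glycolytic enzymes, stood at -0.96 and -0.98, and were lower with trends removed at -1.30 and -1.22.

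Lipid genes had more members lower than higher. Of 19 fatty acid genes 2 were higher (10.5%) and 5 lower (26.3%), against 8.31% and 7.71% of all genes. The numbers were the same with trends removed. SCD, the stearoyl-CoA desaturase, fell 3.21-fold, with 9610 counts in KD and 23523 in Ctrl, and the desaturase FADS2 fell 2.15-fold, with 3666 in KD and 6020 in Ctrl. ACSL4, which activates polyunsaturated fatty acids, fell 2.77-fold, with 8573 in KD and 18126 in Ctrl, and ABCA1, a cholesterol exporter, and LPIN1 fell 2.48-fold and 2.25-fold. The fatty acid carriers FABP5 and FABP4 rose 3.93-fold and 3.14-fold, with 11256 and 801 in KD and 2188 and 195 in Ctrl. Of 22 cholesterol synthesis genes 3 were lower and 0 higher.

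Lysosome genes were shifted up with few calls. Of 37, 30 lay above 0 and the median was 0.50 (0.44 with trends removed). Of the same 37, 4 were higher (10.8%, against 8.31% of all genes) and 0 lower. NPC1 and NPC2, which pass cholesterol out of the lysosome, had 5320 and 9438 counts in KD and 1528 and 3485 in Ctrl, 2.66-fold and 2.07-fold higher (NPC2 trend-removed 0.50). SMPD1, acid sphingomyelinase, had 2596 in KD and 982 in Ctrl (trend-removed 0.87), and CTSD, a cathepsin that shares 52.7% of its exon length with other genes, had 5177 in KD and 1679 in Ctrl (trend-removed 0.96). GLB1, whose product gives the beta-galactosidase stain of senescent cells, had 3386 in KD and 1609 in Ctrl, at 0.68. The palindrome CACGTG, the core of the element bound by the lysosomal regulator TFEB, was present in 8 of 23 lysosome promoters (34.8%), against 10.2% of promoters of all compared genes and 7.43% of all promoters. In promoters of genes called higher the share was 8.51%, and in those of genes called lower 9.75%. Lysosome promoters had a median GC content of 69%, against 65.3% for all compared genes, and its part in these shares was not tested. Among 29 autophagy genes GABARAPL1, ULK1 and MAP1LC3A were higher, the last with a trend-removed value of 0.41. GABARAPL1 had 9060 counts in KD and 2031 in Ctrl.

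Housekeeping complexes were shifted up as groups, which for ribosomal proteins and the respiratory chain was gone with trends removed. The 82 proteins of the cytosolic ribosome had 10 members higher and 2 lower and a median of 0.55, and 0.00 with trends removed, with 2 higher and 2 lower. RPL41 and RPS16 were the 2 that remained, with 15346 and 1037 counts in KD and 2882 and 237 in Ctrl, though both have processed pseudogenes. RPL22L1, a paralogue with regulated expression, fell 2.34-fold, with 2450 in KD and 4371 in Ctrl. The nuclear-encoded respiratory chain had a median of 0.40 over 79 genes and 0.01 with trends removed. Proteasome subunits had a median of 0.31 over 35 genes and 0.32 with trends removed, with 0 called. Of 38 translation factors EIF4EBP2, an inhibitor of cap-dependent translation, was the 1 called, 3.06-fold higher with 9757 counts in KD and 2435 in Ctrl.

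Interferon-stimulated genes did not rise as a group. Of 32, 4 were higher and 5 lower, with a median of -0.05, against 8.31% higher and 7.71% lower of all genes, and with trends removed 2 were higher and 2 lower. IFITM1 had 672 counts in KD and 194 in Ctrl (trend-removed 0.89) and USP18, which dampens interferon signalling, 574 in KD and 169 in Ctrl. HERC5 and IRF7 were higher at low counts, with 70 and 52 in KD and 22 and 17 in Ctrl (IRF7 trend-removed 0.72). TRIM22 fell 2.62-fold, with 2255 in KD and 4512 in Ctrl. SAMD9, SAMD9L, PARP14 and IFIT1 were lower by counts, but stood between -0.91 and -0.52 with trends removed. Widely used members stayed below the limit: ISG15 had 1107 counts in KD and 751 in Ctrl, at 0.17, and MX1 388 in KD and 267 in Ctrl, at 0.15.

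The sensors of double-stranded RNA showed the same picture. RIGI was the 1 of 15 called and was lower, with 1235 counts in KD and 2410 in Ctrl (trend-removed -0.77). IFIH1, which encodes the sensor MDA5, had 149 in KD and 135 in Ctrl, at -0.25 (interval -0.59 to 0.10). MAVS, their adaptor, stood at -0.39 and EIF2AK2, the kinase PKR, at -0.60. Of 19 NF-kB subunits and feedback genes 2 were higher and 3 lower, and with trends removed 1 was higher and 5 lower. TNFRSF11B, the decoy receptor osteoprotegerin, rose 7.00-fold, with 4404 in KD and 480 in Ctrl, and TNFRSF12A 2.27-fold, with 6728 in KD and 2265 in Ctrl (trend-removed 0.65). The feedback inhibitor TNFAIP3 fell 2.78-fold, with 240 in KD and 510 in Ctrl, beside BIRC3. With a prior count of 2 the subunit RELB, the inhibitor NFKBIE and the adhesion molecule ICAM1 stood at -0.88, -0.88 and -0.86. With trends removed they stood at -1.18, -1.31 and -1.08. Of 10 complement genes 0 were higher and 4 lower, among them the membrane regulator CD46 (5878 in KD and 10373 in Ctrl; trend-removed -0.54). B2M, the light chain of MHC class I, had 46360 in KD and 22973 in Ctrl, at 0.62.

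Small nucleolar RNAs were higher by counts as a class. They guide methylation (box C/D) or pseudouridylation (box H/ACA) of other RNAs and are mostly cut from introns of host genes. Of 83 small nucleolar and Cajal body RNAs that passed the count minimum, 68 were higher (81.9%) and 0 lower, with a median log2 ratio of 1.78. Box C/D members had 36 of 39 higher and a median of 2.27, and box H/ACA members 30 of 36 and a median of 1.71. Of 8 Cajal body RNAs 2 were higher, with a median of 0.41. Their summed level was 1373 CPM in KD and 459 CPM in Ctrl. To show what these RNAs look like, 3 box C/D members are given, with box C (TGATGA) and box D (CTGA) in capitals, and 2 box H/ACA members with a ratio far above their host's, with the ACA box in capitals (GENCODE 29, written as DNA).
SNORD8: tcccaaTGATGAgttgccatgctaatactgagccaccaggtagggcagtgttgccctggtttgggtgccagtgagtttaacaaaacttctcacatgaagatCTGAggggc
SNORD14C: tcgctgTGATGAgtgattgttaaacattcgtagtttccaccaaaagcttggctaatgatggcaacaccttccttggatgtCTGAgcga
SNORD57: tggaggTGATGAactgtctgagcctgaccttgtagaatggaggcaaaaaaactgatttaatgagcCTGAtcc
SNORA49: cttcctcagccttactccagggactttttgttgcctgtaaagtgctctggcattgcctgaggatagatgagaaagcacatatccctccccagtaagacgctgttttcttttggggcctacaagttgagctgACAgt
SNORA31B: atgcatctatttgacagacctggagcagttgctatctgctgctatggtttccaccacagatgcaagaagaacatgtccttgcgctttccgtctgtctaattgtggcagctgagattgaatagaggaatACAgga
On GRCh38 they lie at chr14:21397292-21397401, minus strand for SNORD8, at chr11:123059335-123059422, minus strand for SNORD14C, at chr20:2656939-2657010, plus strand for SNORD57, at chr12:132031224-132031359, plus strand for SNORA49 and at chr13:45336314-45336447, minus strand for SNORA31B. Of the 39 box C/D members 26 held TGATGA in the first 30 bases and 35 held CTGA in the last 25. Of the 36 box H/ACA members 33 held ACA in the last 8 bases.

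The small RNAs stood above the genes that host them. SNORD8 had 1673 counts in KD and 183 in Ctrl, with its host CHD8 at -0.45, and SNORD14C 231 in KD and 23 in Ctrl, with HSPA8 at 0.26. SNORD57 had 556 in KD and 63 in Ctrl, with NOP56 at 0.53. SNORA49 had 4282 in KD and 611 in Ctrl (trend-removed 0.55), with EP400 at 0.66, and SNORA31B 4355 in KD and 542 in Ctrl (trend-removed 0.88), with TPT1 at 0.51. Over 75 small RNAs with a compared host the median was 1.83, and over their 54 hosts 0.29. In 69 of 75 pairs the small RNA had the higher ratio, and in 59 it was called higher while the host was not. Among hosts, RPL13A and RPS12 were higher and LRCH2 lower, with trend-removed values of 0.63, 0.44 and -0.90. SNHG14 had 1568 counts in KD and 3011 in Ctrl, a log2 ratio of -1.33 that turned to 1.88 on the deposited FPKM. It hosts 6 of the small RNAs, copies of SNORD116 that can trade reads: SNORD116-3 and SNORD116-9 had the same 221 counts in KD and 33 in Ctrl.

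The deposited FPKM values did not show this difference. Of the 54 small RNAs with an FPKM ratio, 3 were higher and 4 lower, with a median of -0.10, and 29 others, all box C/D, had counts but an FPKM listed at 0 in a library. The effective length implied by counts and FPKM was 1.30 times as long in KD as in Ctrl for RNAs below 300 bases, 1.10 times for 300 to 600 bases and 1.01 times above 2000 bases. Whether more small RNA was present in KD cells or was recovered in the library cannot be told apart. Other short RNAs moved the same way by counts: 10 of 20 spliceosomal snRNAs were higher (on FPKM 1 was higher and 4 lower of 19, with a median of -0.43), and so were RNY1 and RNY3 (98 and 250 counts in KD, 22 and 55 in Ctrl), TERC, the telomerase RNA (709 in KD and 177 in Ctrl; trend-removed 0.57), and SNORD3A, the U3 RNA (21002 in KD and 5041 in Ctrl; trend-removed 0.41). RMRP, the RNA of a mitochondrial RNA processing enzyme, had 27643 in KD and 22007 in Ctrl, at -0.06. SCARNA7 rose 2.89-fold, with 6199 in KD and 1639 in Ctrl, and kept its call with trends removed and on FPKM (1.25 and 1.05). Processed pseudogenes were higher in 71 of 200 cases (35.5%, against 8.31% of all genes), with a median of 0.63.

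**Figure D5:**
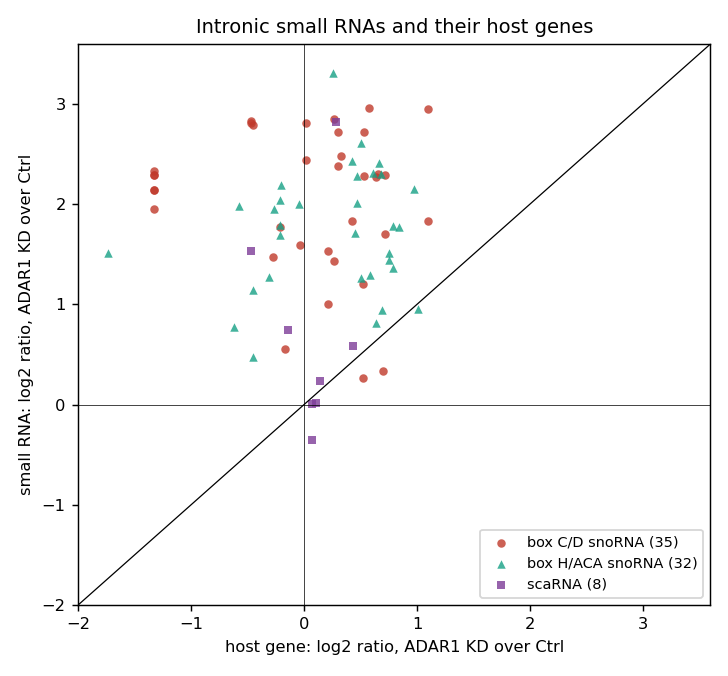
Log2 ratio of ADAR1 KD over Ctrl of 75 intronic small RNAs (vertical) against that of their host genes (horizontal), for box C/D (red), box H/ACA (green) and Cajal body RNAs (violet), with a line of equality. In 69 pairs the small RNA lies above the line.

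Longer noncoding RNAs had both directions. Of 229 lincRNAs 44 were higher and 29 lower, and of 239 antisense genes 43 were higher and 19 lower; the strand setting of the counting is not given, so antisense genes cannot be told apart from their partners. MEG3, an imprinted RNA, fell 3.49-fold, with 2110 counts in KD and 5628 in Ctrl, and LINC01705 rose 26.9-fold, with 352 in KD and 10 in Ctrl. GAS5 stood at 0.09. Of 15 microRNA host genes 0 were higher and 7 lower, with a median of -0.72; MIR210HG and MIR1915HG (125 in KD and 225 in Ctrl) remained lower with trends removed. MIR100HG had 4982 in KD and 8144 in Ctrl (trend-removed -0.69) and MIR155HG 71 in KD and 119 in Ctrl (trend-removed -0.63). Numbered zinc finger genes, most of which encode DNA-binding repressors, had 6 higher (1.41%) and 51 lower (11.97%) of 426. The shares of all genes were 8.31% and 7.71%, and the median of the list was -0.30. With trends removed 25 of the 426 were lower, a share near the 5.32% of all fitted genes. Again 6 were higher, where 5.87% of all fitted genes were higher, and the median of the list was -0.16. ZNF114 rose 5.74-fold, with 933 in KD and 124 in Ctrl, and ZNF233 and ZNF883 fell 5.54-fold and 4.01-fold, with 39 and 122 in KD and 165 and 374 in Ctrl.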

How the data were processed

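Estimated counts and FPKM (fragments scaled to transcript length and library size) per Ensembl gene were deposited by the authors. The submitters' processing notes name RSEM 1.2.3, hg19 and DESeq2. The aligner, annotation release, filters and strand setting are not given in the sources used here. The estimated counts as deposited were scaled by TMM (edgeR 4.0.16, R 4.3.3), and log2 ratios of ADAR1 KD over Ctrl were taken with a prior count of 2. Ratios of named genes carry no prior count unless one is stated, and have Clopper-Pearson intervals at 95%. FPKM as deposited by the authors were compared as log2(FPKM + 0.1). Totals were 50711218 counts in KD and 39172819 in Ctrl. Trends over length and GC content were removed by lowess (fraction 0.3, statsmodels 0.14.6). The comparison was checked on simulated counts with Poisson error only. These hold no spread between cultures and no trend over length or GC content.

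Named genes were ADAR, CDKN2A, SIRT1, the editing enzymes and CDK inhibitors, the 15 with the highest and the 15 with the lowest ratio, the 15 with the largest gain and the 15 with the largest loss of CPM, and for each list up to 6 called members and up to 2 of high abundance. Other genes named for comparison within a list or as examples of the classes were chosen after their values were seen. The members and lists were chosen with earlier results of these data known. Symbols came from a gene table (39501 of 57736 IDs) and from GENCODE 29 (628 IDs). No genome or annotation of hg19 was used, so gene types, exon overlap and GC content come from GENCODE 29 on GRCh38, and genes whose exons overlap others over more than 50% are called uncertain. Alternatives were other scalings, count minimums of 20 and 100, a prior count of 0.5, FPKM, removal of trends, and protein-coding genes on their own. The RNA immunoprecipitation libraries were left out. Some genes and sequences are not reported here.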

Additional observations from a re-analysis of the deposited data

How the results depend on the processing

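The numbers of genes called higher and lower, 1100 and 1020, stayed within 1.5 times of these values under every alternative tried. They were 1136 and 983 with total counts, 1112 and 1006 with DESeq2 size factors, 1121 and 1032 with a prior count of 0.5, 1501 and 1261 with a count minimum of 20, and 856 and 885 with one of 100. They were 972 and 945 on FPKM, 884 and 854 with the length trend removed, 754 and 684 with both trends removed, and 819 and 837 among protein-coding genes scaled on their own. Of these, 807 and 796 were shared with the first count on FPKM, and 646 and 525 with both trends removed. The share of calls that were higher lay between 49.2% and 54.3%. Among named genes that were called, 24 of 299 lost 2-fold on FPKM and 50 of 280 with the length trend removed. With both trends removed 78 of 280 lost it. Under the other scalings 0 of 301 did, and among protein-coding genes scaled on their own 0 of 276. The count minimums do not change a gene's ratio, and a smaller prior count only moves it away from 0. No call could therefore be lost under these settings, but at a minimum of 100 only 274 of the 301 were still compared. RNU2-2P changed sign to -0.14 on FPKM, -0.21 with the length trend removed and -0.015 with both, and SNHG14 to 1.88 on FPKM; the cause was not tested. No paired analysis was possible because each group held 1 library, and for the same reason no replicate could be left out. The intervals cover counting error only, so spread between cultures is unknown. Their median half-width on the log2 scale was 0.53 where the lower count was between 10 and 100. Genes with fewer than 10 counts in a library, such as TYRP1 and MMP10, had wider intervals.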

Other observations

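Of 26 protocadherins, adhesion proteins best known from neurons, 6 were higher and 0 lower, where 8.31% of all genes were higher and 7.71% lower. PCDH10 rose 3.31-fold, with 343 counts in KD and 79 in Ctrl, PCDH9 rose 3.01-fold, with 963 in KD and 244 in Ctrl, and PCDH1 rose 6.28-fold, with 74 in KD and 9 in Ctrl. Of 179 solute carriers 18 were higher and 17 lower (10.1% and 9.50%), close to the shares of all genes. SLC16A6, a monocarboxylate transporter family member, rose, with 5055 in KD and 241 in Ctrl (log2 interval 3.82 to 4.19), and the glutamate transporter SLC1A3 rose 5.21-fold, with 232 in KD and 34 in Ctrl. SLC16A12, a creatine transporter, fell 7.03-fold, with 49 in KD and 263 in Ctrl.

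Of 26 ion channel genes 6 were higher and 4 lower (5 and 2 with trends removed). KCNN4, a calcium-activated potassium channel, had 145 counts in KD and 33 in Ctrl, and KCNJ8, an inward rectifier, had 273 in KD and 702 in Ctrl. Microtubule genes were mostly below the limit, but TUBA4A rose 5.56-fold, with 1442 in KD and 198 in Ctrl, KIF26B rose 5.70-fold, with 747 in KD and 100 in Ctrl, and TUBB2B fell 2.54-fold, with 560 in KD and 1085 in Ctrl. Of 51 RAB GTPases 0 were higher and 4 lower (2 and 2 on FPKM), with RAB38, which acts in melanosome transport, at 94 in KD and 274 in Ctrl. DIS3, a nuclease of the exosome, fell 3.62-fold, with 2099 in KD and 5806 in Ctrl, the 1 called of 31 genes of mRNA decay.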
